A study of Homo sapiens with 6 samples.

Results

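Of the secreted Wnt antagonists, 8 grouped as often silenced by DNA methylation in colorectal cancer were examined for KDM3B and H3K9me2 regions. Whether this holds for each of the 8 was not checked. These genes, SFRP1, SFRP2, SFRP4, SFRP5, WIF1, DKK2, DKK3 and DKK4, were chosen by name, with earlier results of these data known, and were all found in the annotation, among 20144 protein-coding genes. The ChIP-seq was performed in HCT116, a cell line established from a human colorectal cancer, and held 6 libraries: KDM3B ChIP, H3K9me2 ChIP and input DNA, each from control cells (HCT116/Scrsh, with a scramble shRNA) and from cells with an shRNA against KDM3A and KDM3B together (HCT116/ABsh-1). The sample labels name an siRNA treatment, whereas the paper names shRNA. With 1 library for each antibody and cell population there were no replicates, no test was made between HCT116/Scrsh and HCT116/ABsh-1, and the values below stand side by side. Each ChIP library was deposited as a list of called regions, each with its position on hg19 and a whole number in column 5, whose meaning is not given in the sources used here and which is called the score below. The lists held 17638 and 8046 KDM3B regions in HCT116/Scrsh and HCT116/ABsh-1, and 11645 and 88855 H3K9me2 regions. Read depth is unknown, so where a list shows nothing at a gene, nothing was detectable at that depth. The lists hold no RNA measurement, so neither the depletion nor the identity of the cells could be checked on them, and DNA methylation was not measured.

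In the canonical Wnt pathway, secreted Wnt ligands bind Frizzled receptors and their co-receptors LRP5 and LRP6, which stabilises β-catenin and turns on Wnt target genes. HCT116 carries an activating mutation of β-catenin, downstream of the step at which the antagonists act. Secreted antagonists act outside the cell. SFRP proteins carry a cysteine-rich domain like that of Frizzled and, like WIF1, bind the ligands, whereas Dickkopf proteins such as DKK2 and DKK4 bind the co-receptors. DKK3 is the divergent member of the Dickkopf family. H3K9me2, dimethylation of lysine 9 of histone H3, is a mark of repressed chromatin, and KDM3A and KDM3B are demethylases that remove it.

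In HCT116/ABsh-1, 7 of the 8 genes had an H3K9me2 region in the first 1 kb downstream of the transcription start site (TSS) of the canonical transcript, against 19.3% of protein-coding genes, and the exception was DKK4. This position was picked after the regions had been seen. None of the 8 had an H3K9me2 region there in HCT116/Scrsh, against 2.03% of protein-coding genes. At list lengths made equal by score, the count in HCT116/ABsh-1 was 2 of 8, SFRP4 and DKK2, against 5.71%. No member had a KDM3B region within 5 kb of any annotated TSS, against 35.0% of protein-coding genes in the list of HCT116/Scrsh and 19.2% in that of HCT116/ABsh-1. The sequences of these regions are shown for 5 of the 7 genes because they lie at the point the calls have in common, together with the 2 regions near a TSS that were already called in HCT116/Scrsh. The DKK2 region is mostly untranslated sequence and is not printed, and neither is that of SFRP1. Only bases outside untranslated regions are printed, at most 200 for each region, read 5′ to 3′ on the strand of the gene from the hg19 genome, with each CpG, the dinucleotide that DNA methylation acts on, in capitals. The WIF1 sequence begins at the first coding base.
SFRP2, coding exon 1, chr4:154709701-154709900, minus strand: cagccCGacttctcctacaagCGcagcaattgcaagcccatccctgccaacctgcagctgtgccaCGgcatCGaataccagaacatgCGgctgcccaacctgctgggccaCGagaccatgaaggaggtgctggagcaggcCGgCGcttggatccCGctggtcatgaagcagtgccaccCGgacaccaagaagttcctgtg
SFRP4, coding exon 1, chr7:37955901-37956100, minus strand: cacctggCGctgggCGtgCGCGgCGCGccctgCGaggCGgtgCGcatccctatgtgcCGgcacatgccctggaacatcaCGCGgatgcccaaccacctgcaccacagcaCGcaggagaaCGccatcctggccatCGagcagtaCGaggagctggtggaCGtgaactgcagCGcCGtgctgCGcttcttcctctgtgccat
SFRP5, coding exon 1, chr10:99531201-99531300, minus strand: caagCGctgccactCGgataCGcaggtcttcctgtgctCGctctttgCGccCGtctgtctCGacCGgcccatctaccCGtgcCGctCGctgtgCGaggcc
WIF1, coding exon 1, chr12:65514901-65514971, minus strand: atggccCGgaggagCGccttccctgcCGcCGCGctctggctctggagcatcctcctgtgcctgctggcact
DKK3, intron 1, chr11:12029701-12029900, minus strand: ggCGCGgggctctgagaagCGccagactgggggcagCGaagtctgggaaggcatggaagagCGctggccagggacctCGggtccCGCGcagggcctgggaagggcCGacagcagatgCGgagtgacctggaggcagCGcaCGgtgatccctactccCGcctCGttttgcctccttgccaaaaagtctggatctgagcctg
DKK3, intron 1, a region of both H3K9me2 lists, chr11:12028901-12029000, minus strand: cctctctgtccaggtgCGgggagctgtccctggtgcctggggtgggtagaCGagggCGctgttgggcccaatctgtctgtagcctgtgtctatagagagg
SFRP2, upstream of the gene, a region of HCT116/Scrsh inside a wider one of HCT116/ABsh-1, chr4:154713801-154713900, minus strand: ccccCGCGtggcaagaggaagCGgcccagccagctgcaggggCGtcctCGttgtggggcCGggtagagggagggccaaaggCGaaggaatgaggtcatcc

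The printed stretches of coding exon 1 held 10 CpGs in 200 bases at SFRP2, 20 in 200 at SFRP4, 12 in 100 at SFRP5 and 5 in 71 at WIF1, and the stretch of intron 1 of DKK3 held 14 in 200. The DKK3 region called in both cell populations held 3 CpGs in 100 bases, and the upstream SFRP2 region of HCT116/Scrsh held 7 in 100. The ratio of observed to expected CpGs, which is near 1 where CpGs have not been lost, was 0.53 at SFRP2, 0.89 at SFRP4, 1.11 at SFRP5, 0.58 at WIF1 and 0.65 at DKK3 in these stretches. Except at SFRP5 the stretches are parts of wider regions. Over the whole regions the ratio was 0.69 at SFRP2, 0.86 at SFRP4, 0.57 at WIF1 and 0.53 at DKK3. It was 0.32 in the shared DKK3 region and 0.62 in the upstream SFRP2 region.

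The ligand-binding SFRP genes came first in the order of roles. SFRP1 (chromosome 8, 41119481 to 41166992, minus strand) had 2 H3K9me2 regions within 5 kb of a TSS in HCT116/ABsh-1, and no region in the other 3 lists. The region from 41166001 to 41166400, 400 bp wide with a score of 90, began 592 bp downstream of the TSS and covered 266 coding bases of exon 1 and 134 bases of intron 1. The other, from 41169301 to 41169500 with a score of 31, lay upstream of the gene, ending 2309 bp before the TSS. A region of 100 bp with a score of 17 lay deeper in the gene, in intron 2 (41137601 to 41137700). The downstream region thus had the highest score of the 3, above that of 83.1% of the list, whereas the upstream region was above 49.2%. Such shares, here and below, are over regions of all widths, and the score rises with width. Among regions of their own widths, 400 and 200 bp, the median scores were 67 and 33.

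SFRP2 (chromosome 4, 154701743 to 154710235, minus strand) had the widest upstream cover of the SFRP genes. In HCT116/ABsh-1 its region in the first 1 kb, from 154709601 to 154709900 with a score of 57, lay wholly in coding exon 1. Upstream were a region from 154712401 to 154712700 with a score of 84 and one from 154713601 to 154714200, 600 bp wide with a score of 151, above 92.7% of the list. In HCT116/Scrsh, SFRP2 had an H3K9me2 region of 100 bp with a score of 13 from 154713801 to 154713900, which lay inside that widest region. SFRP2 was therefore marked upstream in both cell populations and in exon 1 in the list of HCT116/ABsh-1 alone.

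SFRP4 (chromosome 7, 37945534 to 38065297, minus strand) had 1 H3K9me2 region in HCT116/ABsh-1, from 37955601 to 37956100. It was 500 bp wide with a score of 132, above 90.6% of the list, and covered 406 coding bases of exon 1 and 94 bases of intron 1. This region also lay 4142 bp from a TSS of EPDR1, so that by the limit of 5 kb it belongs to both genes. No region near any other member lay within 5 kb of a TSS of another protein-coding gene.

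SFRP5 (chromosome 10, 99526508 to 99531756, minus strand) had 4 H3K9me2 regions in HCT116/ABsh-1, with scores from 18 to 50. The region in the first 1 kb, 99531201 to 99531300, was 100 bp wide, lay in coding exon 1 and had a score of 22. A region from 99534801 to 99535000 upstream had a score of 50. The other two lay near the end of the gene, with a score of 18 in intron 2 (99527701 to 99527800) and of 23 in exon 3 (99527201 to 99527400), where 127 of 200 bases were coding. SFRP5 had no region in HCT116/Scrsh and no KDM3B region.

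WIF1, the Wnt inhibitory factor that binds the ligands, lies on chromosome 12 (65444406 to 65515085, minus strand). Near its TSS it had a single H3K9me2 region of 100 bp in HCT116/ABsh-1, from 65514901 to 65515000 with a score of 22, over 29 bases of the 5′ UTR and 71 coding bases of exon 1. Inside the gene, in intron 8, lay another of 100 bp with a score of 12 (65449301 to 65449400). WIF1 also had a KDM3B region of HCT116/Scrsh in intron 3, of 100 bp with a score of 12 (65468901 to 65469000), which lay 8462 bp from the nearest annotated TSS and had no counterpart in HCT116/ABsh-1. Of the 7 marked genes WIF1 had the fewest bases covered near a TSS. The study's methods ask for neighbouring significant windows of 100 bp, yet regions of a single window, like those of WIF1 and of SFRP5 in exon 1, made up 41.3% of this list and 72.9% of the H3K9me2 list of HCT116/Scrsh.

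Among the Dickkopf genes, DKK2 (chromosome 4, 107842959 to 108204963, minus strand) had the widest region of all members. It ran from 107956701 to 107957400 in HCT116/ABsh-1, 700 bp with a score of 125, began 70 bp downstream of the TSS and covered 652 bases of the 5′ UTR and 48 coding bases of exon 1. The longer DKK2 transcripts start far upstream, and their span held an H3K9me2 region with a score of 13 (107994201 to 107994300), a KDM3B region of HCT116/Scrsh with a score of 12 (108104501 to 108104600) and a KDM3B region of HCT116/ABsh-1 with a score of 17 (108015601 to 108015700). These 3 regions were 100 bp wide, and the KDM3B regions lay 100246 and 58131 bp from the nearest DKK2 TSS. Neither KDM3B region was called in the other cell population.

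DKK3 (chromosome 11, 11977754 to 12031316, minus strand) had the most H3K9me2 regions, 7 within 5 kb of a TSS in HCT116/ABsh-1, but also the most annotated TSSs, 17. The region in the first 1 kb, from 12029601 to 12029900 with a score of 77, lay in intron 1, and the scores of the other 6 ranged from 12 to 40. In HCT116/Scrsh DKK3 had 2 regions of 100 bp, with a score of 12 in intron 1 (12028901 to 12029000) and of 16 in intron 3 (12007601 to 12007700), of which the first lay within 5 kb of a TSS. Regions with exactly these boundaries were called again in HCT116/ABsh-1, with scores of 18 and 20. All 3 H3K9me2 regions of HCT116/Scrsh at the 8 genes were thus overlapped by a region of HCT116/ABsh-1, against 35.4% of the whole list of 11645.

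DKK4 (chromosome 8, 42231581 to 42234747, minus strand) had no region in any list, either near its TSS or in the gene. Its nearest H3K9me2 region lay 32954 bp upstream in HCT116/ABsh-1 and 185947 bp downstream in HCT116/Scrsh. Its nearest KDM3B regions were closer than those of any other member, 8354 bp upstream of the TSS in HCT116/Scrsh and 8254 bp upstream in HCT116/ABsh-1, where they overlapped (42243101 to 42243200 and 42243001 to 42243200). DKK4 was the sole member without an H3K9me2 region in HCT116/ABsh-1.

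**Figure D1:**
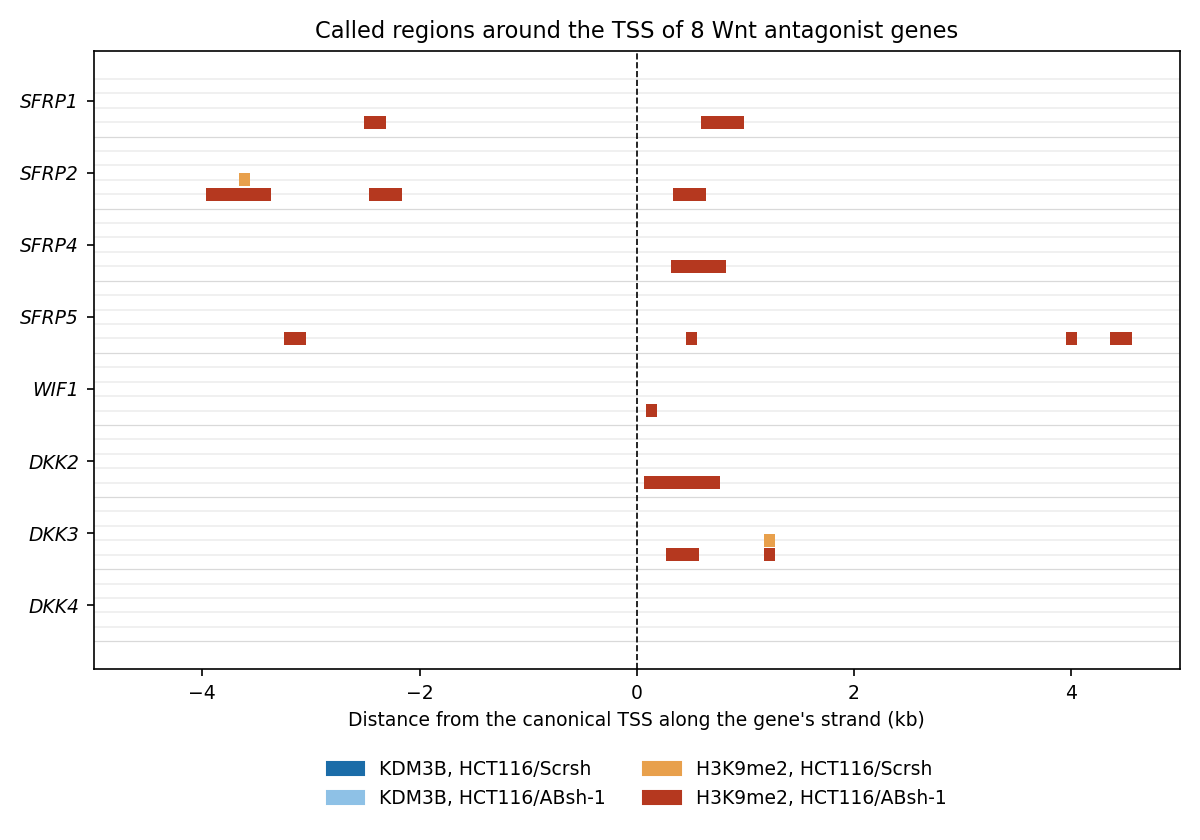
Regions of the 4 lists around the canonical TSS of the 8 genes, drawn to scale along each gene's strand, with the distance from the TSS in kb on the x axis and a lane for each list within each gene. Filled bars are called regions, and H3K9me2 regions of HCT116/ABsh-1 begin between 70 and 592 bp after the TSS at 7 of the 8 genes, whereas no KDM3B region is drawn.

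Read against all genes, the 7 of 8 members that carried H3K9me2 near any TSS (within 5 kb) in HCT116/ABsh-1 compare with 9930 of 20144 protein-coding genes, or 49.3% (Wilson 95% confidence interval 48.6 to 50%). In HCT116/Scrsh, 2 of the 8 (SFRP2 and DKK3) had one, against 10.3% of protein-coding genes. Intervals cover counting error only. The 5 genes with a region in HCT116/ABsh-1 but not in HCT116/Scrsh (SFRP1, SFRP4, SFRP5, WIF1 and DKK2) compare with 40.2% of protein-coding genes. Together the members' TSS windows held 19 H3K9me2 regions covering 5300 bases in HCT116/ABsh-1 and 2 regions covering 200 bases in HCT116/Scrsh. The mean was 662 bases per member in HCT116/ABsh-1 and 25 in HCT116/Scrsh, close to the means over all protein-coding genes, 709 and 22.1. The median of HCT116/ABsh-1 was 600 bases for the members and 0 for all protein-coding genes. The members' mean was thus below that of all genes, while their median was above. DKK3 and SFRP4 also had wider windows than most members, 45053 and 26980 bases, since their TSSs are several.

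The list of HCT116/ABsh-1 is the longest of the 4, and the number of regions near a gene moves with it. When it was shortened to the 11645 regions with the highest scores, 3 members (SFRP2, SFRP4 and DKK2) kept a region within 5 kb of a TSS, against 17.0% of protein-coding genes. The lowest score kept was 106, so that the regions of SFRP1, SFRP5, WIF1 and DKK3 fell below it. The SFRP2 region kept was the upstream one with a score of 151, not the one in exon 1 with a score of 57. The 2 members with a region in HCT116/Scrsh then stand beside 3 in HCT116/ABsh-1. These counts rest on unlike limits, because the median score of the list of HCT116/ABsh-1 rose with width, from 15 at 100 bp to 124 at 700 bp. The cut thus favoured wide regions, and those kept were 600 bp wide at SFRP2, 500 at SFRP4 and 700 at DKK2. The regions of HCT116/Scrsh, 100 bp wide with scores of 13 at SFRP2 and 12 at DKK3, met no such cut.

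A region in the first 1 kb was called at 7 of the 8 members, against 3885 protein-coding genes, or 19.3% (Wilson 95% confidence interval 18.7 to 19.8%). In the 1 kb upstream of the TSS there was none at the members, against 14.7%. Over the first 1 kb downstream, H3K9me2 regions covered 30.0% of the members' bases and 6.01% of those of all protein-coding genes. Between 1 and 5 kb downstream the shares were 1.25% and 3.77%, and between 5 and 1 kb upstream 4.06% and 2.41%. The members reached their highest cover, 55.5%, from 400 to 500 bp downstream, and that of all genes, at 6.37%, between 600 and 700 bp.

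**Figure D2:**
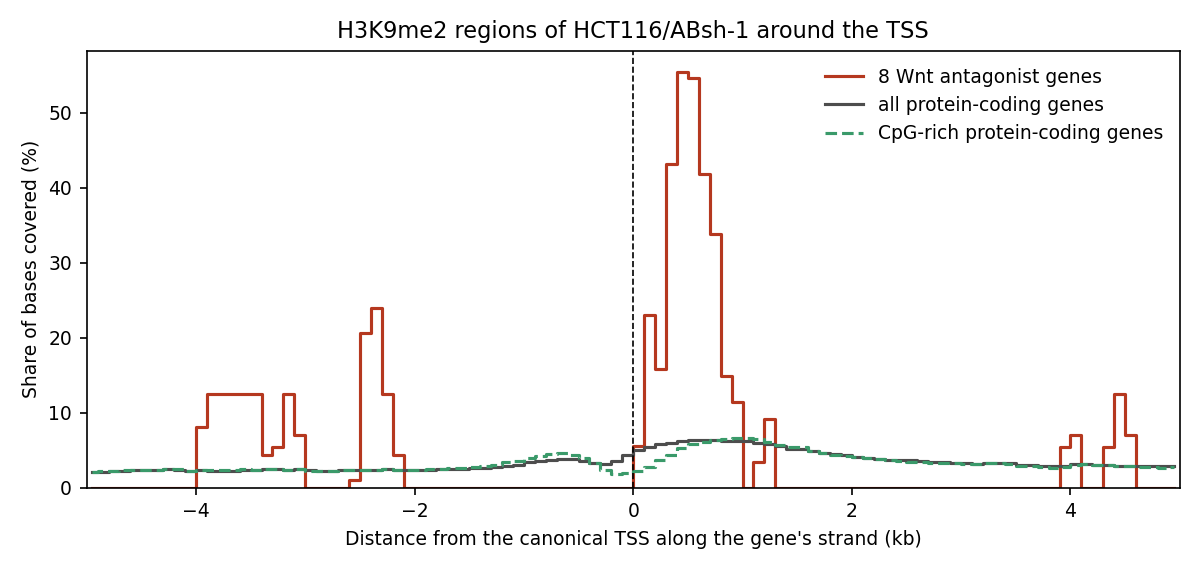
Share of bases covered by H3K9me2 regions of HCT116/ABsh-1 in steps of 100 bp (y axis, %) against the distance from the canonical TSS (x axis, kb), for the 8 genes, all protein-coding genes and the CpG-rich ones among them. The line of the 8 genes reaches 55.5% between 400 and 500 bp after the TSS, and each of the 8 genes adds up to 12.5% at a position, while the lines of all genes stay below 7%.

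The 7 regions in the first 1 kb were between 100 and 700 bp wide, and each had a higher score than the median of regions of its own width in the list. At 100 bp, for instance, the score of 22 at SFRP5 and at WIF1 compares with a median of 15, and at 500 bp the 132 of SFRP4 compares with 86. At DKK2 the score of 125 was hardly above the median of 124 for 700 bp. Of the 12 other regions in the TSS windows, 5 were above the median of their width. The DKK3 regions among them were below it at scores of 35, 39, 40, 26 and 12 and above it at 18. Outside DKK3, 84 and 151 at SFRP2 and 18 and 50 at SFRP5 were above, and 31 at SFRP1 and 23 at SFRP5 below. For regions in the first 1 kb of all genes no such count is given, and this position was picked after the regions were seen. Coding sequence made up 49.6% of the 2400 bases in the first 1 kb and 10.5% of the 2900 bases of the other 12 regions. The median ratio of observed to expected CpGs was 0.71 in the former and 0.32 in the latter. Of the 12 regions, 4 lay upstream of the TSS, where no coding base is counted. Neither value is set beside one for the first 1 kb of all genes.

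**Figure D3:**
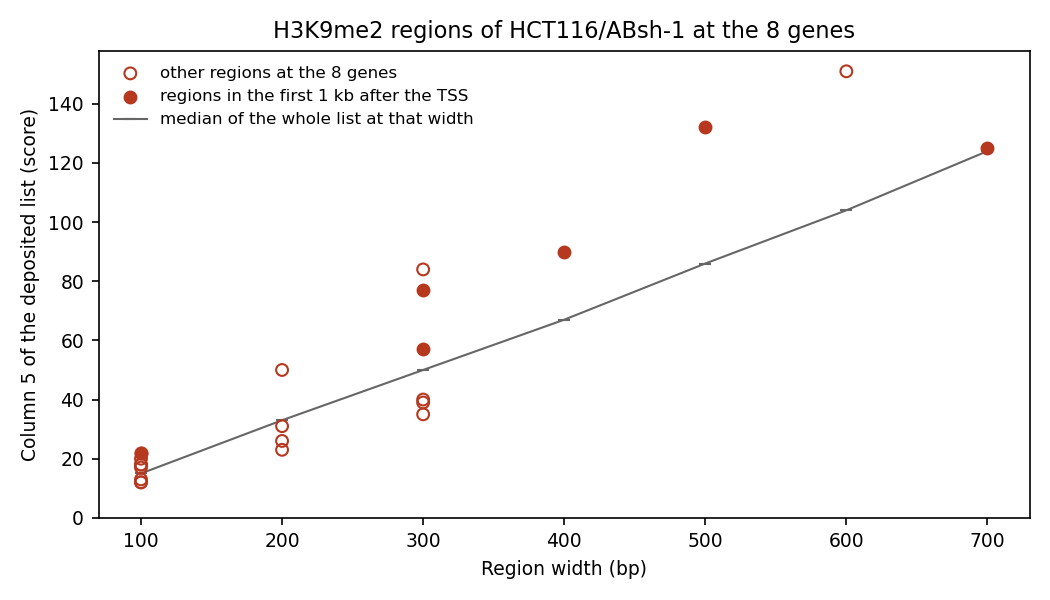
Score (column 5, y axis) against the width of each H3K9me2 region of HCT116/ABsh-1 (x axis, bp) at the 8 genes, including gene bodies, with the median score of all regions of that width as a line. The 7 filled points, regions in the first 1 kb after the TSS, lie above the line, the one at 700 bp by a score of 125 against 124, and open points lie on both sides of it.

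KDM3B regions were missing near the TSS of all 8 members. Within 5 kb of a TSS, the KDM3B list of HCT116/Scrsh reached 35.0% of protein-coding genes (Wilson 95% confidence interval 34.3 to 35.7%) and that of HCT116/ABsh-1 19.2%, against none of the 8 in either list. In the first 1 kb downstream of the TSS, where the members had H3K9me2 in HCT116/ABsh-1, the control list of KDM3B held a region at 10.4% of protein-coding genes. The distance from the canonical TSS to the nearest KDM3B region ranged from 8354 bp at DKK4 to 157592 bp at SFRP1 in HCT116/Scrsh, with a median of 37082 bp, against a median of 25532 bp over all protein-coding genes. In HCT116/ABsh-1 the medians were 100438 and 62852 bp. Within 100 kb on either side of the TSS, the members had between 0 and 4 KDM3B regions in HCT116/Scrsh, with none at SFRP1 and DKK2 and 4 at SFRP5, and a median of 1.5 against 2 over all genes. A share of 19.7% of protein-coding genes likewise had none within 100 kb. In HCT116/ABsh-1, 4 members (SFRP1, SFRP4, SFRP5 and WIF1) had none, against 38.9% of protein-coding genes, and the medians were 0.5 and 1.

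For H3K9me2 in HCT116/ABsh-1, whose list of 88855 regions is the longest, the distances were shorter than for KDM3B at 7 members. In HCT116/Scrsh their median was longer than for KDM3B. In HCT116/ABsh-1 the nearest region began between 70 bp (DKK2) and 592 bp (SFRP1) from the TSS at 7 members, and the median over the 8 was 327 bp against 11827 bp over all protein-coding genes. In HCT116/Scrsh the median was 157808 bp, against 104914 bp, and 5 of the 8 members had no H3K9me2 region within 100 kb, against 51.4% of protein-coding genes. SFRP5 had 19 regions within 100 kb in HCT116/ABsh-1, the most of the 8, whereas SFRP4 had only the region at its own exon 1. The median of the members within 100 kb was 5.5 regions, close to the 5 of all protein-coding genes.

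When the whole gene body was added to the windows, 2 members (WIF1 and DKK2) had a KDM3B region in HCT116/Scrsh, against 43.5% of protein-coding genes, and DKK2 in HCT116/ABsh-1, against 25.1%. H3K9me2 regions were then called at the same 2 members in HCT116/Scrsh, against 17.8%, and at the same 7 in HCT116/ABsh-1, against 56.5%. The number of H3K9me2 regions went from 19 to 23 in HCT116/ABsh-1 and from 2 to 3 in HCT116/Scrsh. The 3 KDM3B regions all lay over 5 kb from a TSS, as did 4 of the 23 H3K9me2 regions of HCT116/ABsh-1 and 1 of the 3 of HCT116/Scrsh. The longest of the genes, DKK2 and SFRP4, span 362005 and 119764 bp.

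The pattern of H3K9me2 in HCT116/ABsh-1 with no KDM3B region in either list, seen at 7 of the 8 members within 5 kb of a TSS, was shared by 5714 protein-coding genes, or 28.4%. KDM3A, which the shRNA targets together with KDM3B, has no list here, so whether it was bound at these genes is unknown. The paper set its KDM3A ChIP-seq aside because of strong background noise. The pattern of SFRP1, SFRP4, SFRP5, WIF1 and DKK2, with H3K9me2 in HCT116/ABsh-1 as the sole call, was that of 22.4% of protein-coding genes. SFRP2 and DKK3, with H3K9me2 in both cell populations, shared theirs with 5.96%. The pattern of DKK4, with no call, was the most frequent, at 31.6%.

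The members differed in promoter sequence. In the 1001 bp centred on the canonical TSS, the GC content of the members was 71.1% at SFRP5, 69.2% at DKK3, 67.1% at SFRP2, 67.0% at SFRP1, 63.4% at WIF1, 62.5% at SFRP4, 53.7% at DKK2 and 49.4% at DKK4, against a median of 61.2% over protein-coding genes. The ratio of observed to expected CpGs was 0.97 at SFRP1, between 0.74 and 0.76 at SFRP2, SFRP4, SFRP5, WIF1 and DKK3, 0.66 at DKK2 and 0.30 at DKK4, against a median of 0.72. DKK4, the gene with no region, had the lowest GC content and the lowest CpG ratio of the 8. A TSS was taken as CpG-rich at a GC content above 55% and a ratio above 0.65, which 6 members met, all but DKK2 and DKK4, and 11290 protein-coding genes, or 56.0%.

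CpG-rich protein-coding genes, taken as a background after the promoters were seen, gave other shares. An H3K9me2 region lay within 5 kb of a TSS in HCT116/ABsh-1 at 53.1% of them, against 6 of the 6 CpG-rich members, and in the first 1 kb downstream at 17.4%, again against 6 of 6. In HCT116/Scrsh the share within 5 kb was 9.02%, against 2 of 6. The KDM3B list of HCT116/Scrsh reached 41.7% of CpG-rich genes and that of HCT116/ABsh-1 23.8%, against 0 of 6 in each.

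Motifs were searched on both strands in the promoters, from 250 bp before to 50 bp after the TSS. The TCF/LEF motif CTTTGAT was found at DKK4 alone and in 1.96% of all 20144 promoters, and the variant CTTTGTT at no member and in 3.95%. The E-box CACGTG was found at no member and in 8.74%. No match says only that these letters are not in the window. The promoters of the members held between 6 CpGs (DKK4) and 36 (DKK3). All 8 genes lie on the minus strand, as do 49.3% of protein-coding genes.

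Other genes of the pathway were read in the same way. Of 16 other antagonists, 14 carried H3K9me2 in HCT116/ABsh-1 within 5 kb of a TSS, against 49.3% of protein-coding genes. In the first 1 kb downstream 8 did, or 50%, against 19.3%. Within 5 kb of a TSS, the KDM3B list of HCT116/Scrsh reached 8 of the 16, against 35.0% of protein-coding genes. That of HCT116/ABsh-1 reached 7, against 19.2%. Neither list reached any of the 8 members, and the difference between the 16 and the 8 was not tested. The most bases over the 4 lists were covered at NOTUM, the secreted Wnt deacylase (4716 bases, all H3K9me2 of HCT116/ABsh-1), KREMEN2 and KREMEN1, receptors for Dickkopf proteins (2700 and 1900), and SOST, an LRP5 and LRP6 antagonist (1600). DKKL1 (1400), FRZB (1200) and TRABD2B (900) followed. The members' commonest pattern, with H3K9me2 in HCT116/ABsh-1 as the sole call, was shared by NOTUM, FRZB, DRAXIN, SOSTDC1 and APCDD1. FRZB, the SFRP family member that is also known as SFRP3, had a region covering 1200 bases, which reached into the first 1 kb downstream of its TSS as at SFRP1, SFRP2, SFRP4 and SFRP5. DKK1, the founding Dickkopf gene, was picked after its values were seen. Within 5 kb of a TSS it had KDM3B regions of 400 and 300 bases in HCT116/Scrsh and HCT116/ABsh-1 and no called H3K9me2 region. The paper reports, from this ChIP-seq and from ChIP-qPCR, that H3K9me2 at DKK1 increased after the depletion. The lists hold called regions only, so an increase that was not called would not appear in them.

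Of 34 Wnt ligand and receptor genes, 25 carried H3K9me2 within 5 kb of a TSS in HCT116/ABsh-1 and 7 in HCT116/Scrsh. In the first 1 kb downstream, 14 had a region in HCT116/ABsh-1, or 41.2%. The most bases of H3K9me2 in HCT116/ABsh-1 were covered at the ligand genes WNT3 (8853), WNT7B (3348) and WNT4 (2900). KDM3B regions were called at 12 of the 34 in HCT116/Scrsh, with 300 bases each at WNT3, WNT9A and WNT9B. Over all protein-coding genes the shares were 49.3% and 10.3% for H3K9me2 within 5 kb in HCT116/ABsh-1 and HCT116/Scrsh, 19.3% for the first 1 kb and 35.0% for KDM3B, to which the 35.3% of the ligand and receptor genes was close.

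Of 34 other genes known for DNA methylation in colorectal cancer, 28 carried H3K9me2 in HCT116/ABsh-1 within 5 kb of a TSS, against 49.3% of protein-coding genes. A region in the first 1 kb downstream was called at 19, or 55.9%, against 19.3%. In HCT116/Scrsh, 7 of the 34 had an H3K9me2 region within 5 kb, or 20.6%, against 10.3%. KDM3B regions within 5 kb were called at 9 of them in control cells, or 26.5%, below the 35.0% of protein-coding genes. In HCT116/ABsh-1 they were called at 6, or 17.6%, close to the 19.2% of protein-coding genes. H3K9me2 covered 31700 bases at SEPTIN9, whose windows are long, 10186 at CACNA1G, a calcium channel gene used to define methylated colorectal cancers, and 4800 at NDRG4. KDM3B of HCT116/Scrsh covered 2700 bases at SEPTIN9 and 500 at NDRG4. The members' pattern in the first 1 kb was therefore not restricted to Wnt antagonists.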

How the data were processed

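The authors mapped 50-bp reads to hg19 with Bowtie, kept uniquely placed reads, counted a read once per position and compared each ChIP with its input in 100-bp windows by a Poisson distribution. The deposited lists, 1 per ChIP library, hold position, a name and a score in column 5, a whole number of at least 2 that was used only as printed and to rank regions within a list. Input libraries were not analysed here. The reference used here was the GRCh37 (hg19) sequence with GENCODE release 44 in its hg19 version, whereas the study's methods name RefSeq genes. A region was assigned to a gene when at least 1 bp lay within 5 kb of any annotated TSS. Of 20163 protein-coding genes, 19 without assembled sequence at the TSS were left out.

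Depth is unknown, and no test between cell populations was made. Members, gene lists and named genes were chosen with earlier results of these data known. All 8 members were named, with the other antagonists that had the most bases covered or shared a member's pattern (of those tied in bases, only the ones that shared a pattern), with DKK1 added after its values were seen, and the 3 genes of each further list with the most bases of H3K9me2 in HCT116/ABsh-1 or KDM3B in HCT116/Scrsh, except where genes tied. The first 1 kb and the CpG-rich genes were chosen after the regions were seen. The overlap code was tested on simulated data. Python 3.11.15, numpy 2.4.6, pandas 2.3.3, scipy 1.17.1 and pysam 0.24.0 were used. Alternatives were other windows and TSS sets, higher scores, equal list lengths, merged regions, region centres and gene bodies.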

Additional observations from a re-analysis of the deposited data

How the results depend on the processing

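Results were the number of members with a region and the bases covered, for each list. With windows of 10 kb, KDM3B regions lay at 3 members in HCT116/Scrsh (SFRP4, WIF1 and DKK4, 300 bases) and at 1 in HCT116/ABsh-1 (DKK4, 200 bases). With the gene body they lay at 2 members (200 bases) and at 1 (100 bases). Shares of protein-coding genes were not computed for windows of 2 or 10 kb, so the counts there have no background. For H3K9me2 in HCT116/Scrsh, windows of 2 kb kept 1 member (DKK3, 100 bases), and the 50% of the list with the highest scores and the first 1 kb downstream kept 0, with 0 bases. The lowest score kept in that 50% was 13, which is also that of the SFRP2 region, and ties were broken by position. For H3K9me2 in HCT116/ABsh-1, equal numbers of regions per antibody kept 3 members with 1800 bases. The 7 members kept 2800 bases with windows of 2 kb and 2400 in the first 1 kb downstream, an alternative chosen after seeing the data. Equal numbers and the first 1 kb together, also chosen after seeing the data, left 2 members (SFRP4 and DKK2) with 1200 bases in HCT116/ABsh-1 and 0 with 0 bases in HCT116/Scrsh. The other values stayed within 1.5 times those of the report. Depth, the missing replicates and the unknown meaning of the score limit every comparison.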
